A study of Mus musculus with 19 samples.

Results

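The livers of 9 female mice kept on a low cholesterol diet, 4 of them Gramd1c-/- and 5 Gramd1c+/+, were compared across all genes, out of 19 mice in the series. The mice were chosen by genotype and diet as the sample titles give them, and 1 RNA sequencing library was made from each liver. The labels give a C57Bl6/N background for all 19 mice, the study names the knockout line C57BL/6N-Atm1Brd Gramd1ctm1a(KOMP)Wtsi/JMmucd, and at 8 weeks of age they were switched to a synthetic diet for 4 weeks, with 0.02% (wt/wt) cholesterol for these 9 mice. The Gramd1c-/- mice carried a knockout-first allele in every tissue, in which Gramd1c is disrupted by an inserted lacZ cassette, and the Gramd1c+/+ mice were littermates from crosses of heterozygous parents. The other 10 mice, 5 of each genotype, received 0.2% cholesterol and entered the model to share its estimate of the spread. The mice were perfused with saline before the liver was frozen. In whole liver, fewer cells of a type and less RNA per cell cannot be told apart.

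Gramd1c encodes Aster-C, a member of a family of proteins anchored in the endoplasmic reticulum that take up cholesterol from the plasma membrane at sites where both membranes meet. Its relatives are Aster-A (Gramd1a) and Aster-B (Gramd1b), the last of which is abundant in the adrenal cortex. Many liver genes differ between female and male mice because growth hormone is released in different rhythms in the sexes, and the transcription factors STAT5B, BCL6 and CUX2 carry that pattern into the hepatocyte. Several Cyp3a enzymes and sulfotransferases are typical of female liver, while most major urinary proteins (Mup), which carry pheromones, are typical of male liver.

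Total counts ranged from 30938234 to 32619048 in Gramd1c+/+ and from 27172732 to 30939857 in Gramd1c-/- mice. The tissue field of the labels names gonadal adipose tissue and the cell type field liver. Albumin made up 6.92 to 9.17% of the counts of the 9 mice, and all 12 hepatocyte markers had counts in each of them. Levels are given as TPM, which scales counts for gene length and depth. A log2 fold change is that of Gramd1c-/- over Gramd1c+/+ from edgeR with its standard error (SE), and genes counted as called if the p adjusted after Benjamini and Hochberg was under 0.05.

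Replicate 2 of the Gramd1c+/+ mice held transcripts of the adrenal gland and of fat. Cyp21a1, the steroid 21-hydroxylase of the adrenal cortex, had 5525 counts in this library, 7 to 15 in the other Gramd1c+/+ mice and 0 to 20 in the Gramd1c-/- mice. Cyp11a1, which makes the first cut in the cholesterol side chain, had 1892 counts against 0 to 11 in the other 8 mice, and Cyp11b1, the 11-beta hydroxylase, had 2869 against 0 to 13. Chromogranin A (Chga), a granule protein of adrenal medulla, had 322 counts against 0 to 2. Adiponectin (Adipoq), secreted by adipocytes, had 177 counts against 0 to 10, the uncoupling protein Ucp1 of brown fat had 91 against 0 to 1, and leptin (Lep) was at 0 in all 9 libraries. The summed level of 16 adrenal cortex markers was 825.58 TPM in replicate 2, 176.94 to 187.3 TPM in the other Gramd1c+/+ mice and 149.69 to 176.5 TPM in Gramd1c-/- mice. The sum in the other 8 mice came mostly from markers that liver also expresses, such as Scarb1 and Fdx1. The summed level of 14 adipocyte markers, which is mostly Car3 of the liver itself, did not set replicate 2 apart, at 1369.8 TPM against 1275.7 to 1650.3 and 1236 to 1940 TPM.

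In replicate 2, 49 genes had at least 1 CPM (counts scaled to the library total after its adjustment by TMM) and at least 5 times the highest level of the other 8 mice. They added up to 863 CPM, and Cyp21a1, Hsd3b1, Star, Cyp11b1 and Cyp11a1 led them. By the same measure 5 genes, with 7.28 CPM in all, stood out in replicate 1 of the Gramd1c-/- mice and 0 genes in each of the other 7 mice. Since these transcripts count as wild type liver, each comparison was made with and without replicate 2. When it was left out, 106 of 14947 genes moved by over 0.5 in log2 fold change, all 106 upward, and the median absolute move over all genes was 0.04. The 5 genes that moved most were Cyp21a1, Hsd3b1, Cfd, Star and Kcnk3.

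**Figure D1:**
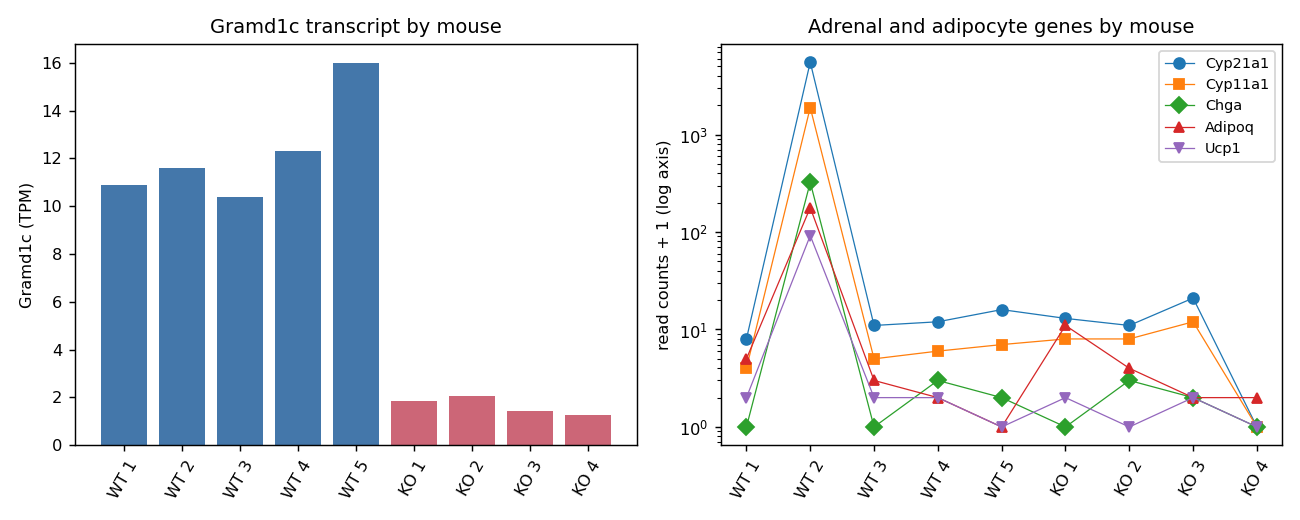
Left, Gramd1c transcript in TPM (bars, 1 per mouse) in 5 Gramd1c+/+ (WT) and 4 Gramd1c-/- (KO) mice on low cholesterol. Right, read counts plus 1 on a log axis for 3 adrenal genes (Cyp21a1, Cyp11a1, Chga) and 2 adipocyte genes (Adipoq, Ucp1), where WT 2 is above the other 8 mice for all 5 genes.

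Of 15016 genes tested, Gramd1c was the single gene called, 0.00666% of those tested, and it was lower in Gramd1c-/- mice. Without replicate 2 it was again the single gene called, of 14947 (0.00669%). No gene was called higher by edgeR in either fit (0%). The next smallest adjusted p was 0.999 in both. At an unadjusted p below 0.05 there were 400 genes with replicate 2 (223 higher and 177 lower) and 444 without it (239 higher and 205 lower), of which 265 were in both sets, while 751 would be expected of 15016 if no gene differed. This count depends on the fit: with the 9 mice alone it was 928 of 14260 (1118 of 14107 without replicate 2), and with limma-voom and sample weights 1004 (1047). Gramd1c was still the single gene called in these fits, and with a term for animal numbers, where the next smallest adjusted p was 0.0690 (0.0878 without replicate 2). DESeq2 called Gramd1c alone with all mice, and Gramd1c and Orm3 without replicate 2, with an adjusted p of 0.0369 for Orm3. The values of the other genes in the next paragraphs are therefore descriptions of these mice.

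A second measure, which needs no model, was whether the CPM of every Gramd1c-/- mouse lay above, or below, that of every Gramd1c+/+ mouse. With all 9 mice 159 genes (1.06% of 15016) were above and 176 (1.17%) below. Without replicate 2 these were 278 (1.85%) and 419 (2.79%). Leaving out any 1 of the 9 mice loosens the requirement, and it then held for 225 to 523 genes above and 221 to 419 below. On high cholesterol, with 5 mice of each genotype, 12 genes (0.0799%) were above and 19 (0.127%) below. A list of genes is described below by these counts and by its median log2 fold change. Counts with all 9 mice are to be read against 1.06% and 1.17%, and those without replicate 2 against 1.85% and 2.79%. Counts on high cholesterol are to be read against 0.0799% and 0.127%. The median of all genes was -0.0014, 0.0046 without replicate 2 and 0.0088 on high cholesterol.

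**Figure D2:**
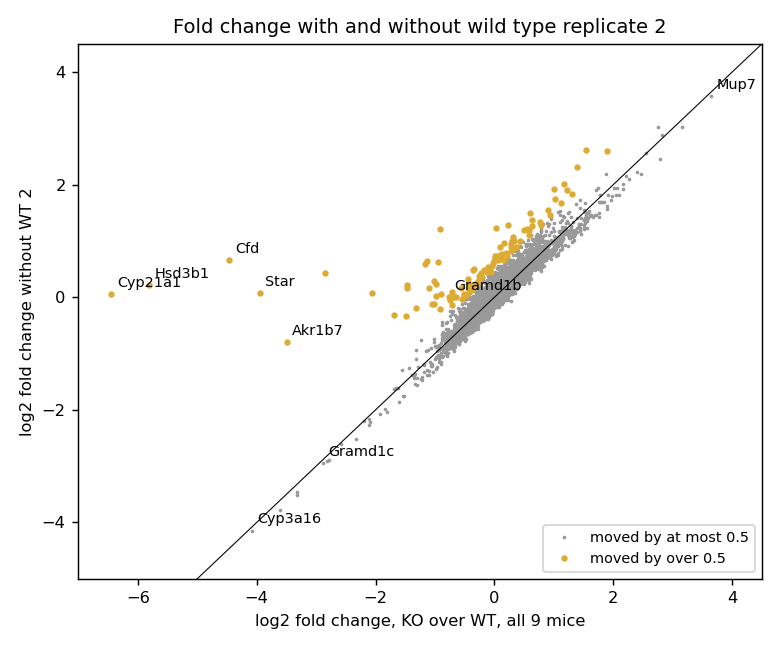
Log2 fold change of each gene, Gramd1c-/- (KO) over Gramd1c+/+ (WT), with all 9 mice (horizontal) and without WT 2 (vertical), with the line of equal values. The 106 genes that moved by over 0.5 (yellow) lie above the line, with Cyp21a1, Hsd3b1, Cfd and Star farthest from it, while Gramd1c, Cyp3a16 and Mup7 lie near it.

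Gramd1c transcript was at 10.9, 11.6, 10.4, 12.3 and 15.99 TPM in the Gramd1c+/+ mice and at 1.87, 2.04, 1.45 and 1.25 TPM in the Gramd1c-/- mice. Every Gramd1c-/- liver was thus below every Gramd1c+/+ liver, and 81 to 130 reads of the gene were still counted in each. The gene (ENSMUSG00000036292) lies on chromosome 16 from 43980350 to 44063345 on the minus strand of GRCm38. Its log2 fold change was -2.89 (SE 0.30, edgeR adjusted p = 9.79e-05), and -2.95 (SE 0.31, edgeR adjusted p = 2.26e-04) without replicate 2. A two-sided exact permutation test of TPM gave p = 0.00794, and p = 0.0286 without replicate 2, the smallest values that the splits of 9 and of 8 mice allow.

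Gramd1b was at 0.706, 3.47, 0.670, 0.688 and 0.530 TPM in Gramd1c+/+ and at 0.630, 0.814, 0.605 and 0.645 TPM in Gramd1c-/- mice. The one high value is that of replicate 2, and the log2 fold change was -0.77 (SE 0.39) with it and 0.01 without it. Gramd1a ranged from 2.71 to 4.45 TPM in Gramd1c+/+ and from 3.001 to 3.82 TPM in Gramd1c-/- mice. Of 16 tested genes for Aster proteins and other carriers of sterols and lipids between membranes, 1 was called (Gramd1c), and 7 had positive and 9 negative fold changes. Scp2, a peroxisomal sterol carrier, was at 1129 to 1773 TPM in Gramd1c+/+ and 1578 to 2556 TPM in Gramd1c-/- mice (log2 fold change 0.31, SE 0.17, and 0.17 without Gramd1c-/- replicate 4).

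Genes of cholesterol synthesis were divided in sign on low cholesterol. Of 20 tested, 9 were positive and 11 negative, the median log2 fold change was -0.02 (-0.01 without replicate 2), and in 0 of them were the groups apart. On high cholesterol 1 was positive and 19 negative, with a median of -0.17, and the groups were again apart for 0. Sqle, the squalene epoxidase, was at 43.4, 51.8, 57.6, 43.9 and 25.5 TPM in Gramd1c+/+ and at 34.1, 46.0, 56.8 and 38.2 TPM in Gramd1c-/- mice. Hmgcs1, which makes the precursor of mevalonate, ranged from 183 to 530 TPM and from 278 to 467 TPM. Its 5 Gramd1c+/+ values enclosed the 4 Gramd1c-/- values, as did those of Sqle. Of 17 genes of bile acid synthesis, 7 were positive and 10 negative with a median of -0.05 (-0.14 without replicate 2), and Cyp7a1, its rate-limiting enzyme, spread from 5.25 to 71.4 TPM within the Gramd1c+/+ mice and from 20.7 to 106.9 TPM within the Gramd1c-/- mice.

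The Cyp3a genes that are typical of female liver were low in Gramd1c-/- mice. Cyp3a16, Cyp3a41a, Cyp3a41b and Cyp3a44 lie side by side on chromosome 5 (145436309 to 145805874, minus strand), and each was lower in all 4 Gramd1c-/- mice than in all 5 Gramd1c+/+ mice. Their start regions from RefSeq, from 250 bases before to 50 after the start, are shown because the 4 genes moved together and are copies of each other. Bases that differ from Cyp3a41a in a global alignment are in capitals, and the build is GRCm38.p6.
Cyp3a41a (chr5:145720087-145720386, minus strand): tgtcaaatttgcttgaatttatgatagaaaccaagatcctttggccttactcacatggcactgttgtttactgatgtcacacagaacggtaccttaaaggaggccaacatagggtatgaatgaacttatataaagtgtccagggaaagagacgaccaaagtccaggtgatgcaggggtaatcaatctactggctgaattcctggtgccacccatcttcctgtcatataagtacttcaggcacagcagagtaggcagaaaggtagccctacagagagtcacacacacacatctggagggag
Cyp3a41b (chr5:145584681-145584980, minus strand): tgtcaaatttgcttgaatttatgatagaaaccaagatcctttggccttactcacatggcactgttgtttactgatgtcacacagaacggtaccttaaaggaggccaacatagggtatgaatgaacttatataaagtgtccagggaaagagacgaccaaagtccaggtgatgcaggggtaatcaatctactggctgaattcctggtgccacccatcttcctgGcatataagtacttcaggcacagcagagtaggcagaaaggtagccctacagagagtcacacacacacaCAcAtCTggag
Cyp3a16 (chr5:145469674-145469973, minus strand): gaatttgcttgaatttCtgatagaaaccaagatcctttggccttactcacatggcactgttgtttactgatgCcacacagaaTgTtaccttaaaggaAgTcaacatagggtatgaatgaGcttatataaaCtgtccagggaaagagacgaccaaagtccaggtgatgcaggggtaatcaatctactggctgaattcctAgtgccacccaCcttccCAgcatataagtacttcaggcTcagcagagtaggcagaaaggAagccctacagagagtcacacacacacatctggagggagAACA
Cyp3a44 (chr5:145805825-145806124, minus strand): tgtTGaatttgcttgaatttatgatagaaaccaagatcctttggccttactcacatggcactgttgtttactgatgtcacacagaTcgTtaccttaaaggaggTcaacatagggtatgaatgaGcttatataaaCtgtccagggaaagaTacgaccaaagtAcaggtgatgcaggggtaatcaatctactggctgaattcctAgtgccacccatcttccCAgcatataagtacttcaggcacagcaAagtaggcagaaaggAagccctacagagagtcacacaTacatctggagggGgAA
The aligned region of Cyp3a41b had 8 differences from that of Cyp3a41a: 6 bases in capitals and 2 bases of Cyp3a41a without a partner. Cyp3a44 had 21 (18 in capitals and 3 without a partner) and Cyp3a16 had 23 (18 and 5). Each region was cut at 300 bases and aligned end to end. Bases that an insertion or deletion shifts over an edge are thus counted too, as after the longer CA repeat of Cyp3a41b. The counts are therefore not numbers of separate changes. The open reading frames of Cyp3a41a and Cyp3a41b, 1515 bases each, differed at 2 positions (99.87% identity), and those of Cyp3a41a and Cyp3a16 were 92.84% identical. Reads of Cyp3a41a and Cyp3a41b could thus hardly be told apart, and how they were split between both genes is uncertain. The motif TTCNNNGAA, which reads the same on both strands and is of the type bound by STAT5 and BCL6, was in 0 of these 4 regions, and in 2726 of 32851 promoter regions of the same length (8.3%).

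Cyp3a16 was at 10.2, 39.1, 60.6, 33.3 and 66.3 TPM in Gramd1c+/+ and at 1.71, 1.76, 5.78 and 0.626 TPM in Gramd1c-/- mice. Its log2 fold change was -4.08 (SE 1.20), and -4.14 without replicate 2, with an edgeR adjusted p of 0.999 in both. Cyp3a41a was at 112, 225, 358, 318 and 329 TPM and at 24.0, 14.97, 100.1 and 12.1 TPM, so that replicate 3 of the Gramd1c-/- mice came near to replicate 1 of the Gramd1c+/+ mice. The same 2 mice were the nearest to the other group for Cyp3a41b (2.35 and 2.72 TPM) and Cyp3a16. Cyp3a44 was at 83.2, 137, 175, 177 and 145 TPM in Gramd1c+/+ and at 43.0, 26.2, 50.4 and 12.7 TPM in Gramd1c-/- mice. The log2 fold changes were -2.82 (SE 1.08) for Cyp3a41a, -3.61 (SE 1.14) for Cyp3a41b and -2.10 (SE 0.73) for Cyp3a44.

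The other 4 tested members of the family overlapped between the genotypes. Cyp3a11, the most abundant drug-metabolizing member, was at 1076 to 1552 TPM in Gramd1c+/+ and 1242 to 1785 TPM in Gramd1c-/- mice. Cyp3a25 was at 374 to 558 and 381 to 560 TPM. Over the 8 members the median log2 fold change was -1.18 (-1.28 without replicate 2) and 4 (50%) were apart in the lower direction. Cyp3a16, Cyp3a41a, Cyp3a41b and Cyp3a44 were picked out by the study in these same mice, so the count is not independent evidence. On high cholesterol the fold changes of these 4 genes were 2.4985, 1.16, 1.59 and 0.77, opposite in sign to those on low cholesterol. The difference between the diets was -6.58 (SE 1.56) for Cyp3a16 and -2.87 (SE 0.97) for Cyp3a44, and neither was called (edgeR adjusted p = 0.9999 for both).

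**Figure D3:**
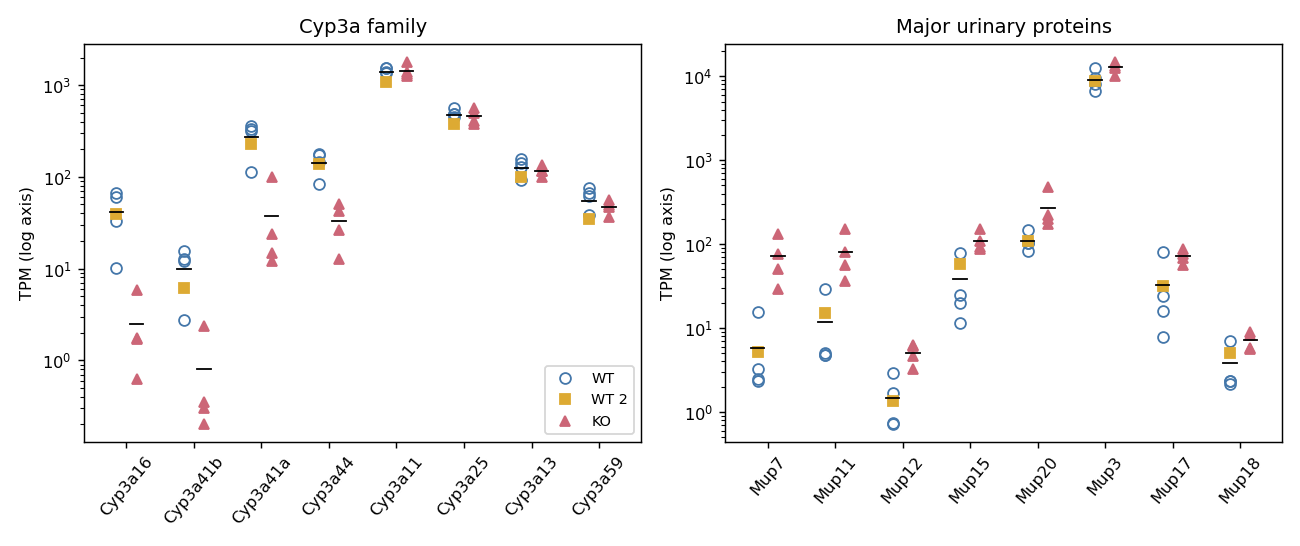
TPM on a log axis of 8 Cyp3a genes (left) and 8 Mup genes (right), with 1 point per mouse for Gramd1c+/+ (WT, circles, with WT 2 as a square) and Gramd1c-/- (KO, triangles) and the mean of each genotype as a line. All KO points are below all WT points for Cyp3a16, Cyp3a41b, Cyp3a41a and Cyp3a44 and above them for Mup7, Mup11, Mup12, Mup15 and Mup20.

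Major urinary proteins had positive fold changes for 16 of 19 tested genes, with a median log2 fold change of 0.76 (0.75 without replicate 2), and for 5 of them (26.3%) the groups were apart. The median was 0.45 without Gramd1c-/- replicate 4 and 0.48 without Gramd1c+/+ replicate 1. Mup7 was at 2.32, 5.22, 2.44, 15.6 and 3.24 TPM in Gramd1c+/+ and at 50.3, 133, 29.5 and 76.6 TPM in Gramd1c-/- mice. Its log2 fold change was 3.65 (SE 1.26, edgeR adjusted p = 0.999), and 3.57 without replicate 2. Mup11 was at 4.99, 15.1, 4.80, 29.0 and 4.73 TPM and at 81.6, 151, 35.9 and 56.2 TPM (log2 fold change 2.82, SE 0.97). For both genes replicate 4 was the highest Gramd1c+/+ mouse and replicate 3 the lowest Gramd1c-/- mouse.

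Mup12 was at 0.727 to 2.90 TPM in Gramd1c+/+ and 3.21 to 6.23 TPM in Gramd1c-/- mice (log2 fold change 1.76, SE 0.76). Mup15 was at 11.5 to 78.6 and 87.2 to 150.5 TPM (1.53, SE 0.84). Mup20, the pheromone darcin of male urine, was at 82.7 to 146 TPM in Gramd1c+/+ and at 222, 198, 175 and 480 TPM in Gramd1c-/- mice, the last in replicate 4 (1.29, SE 0.60). Mup3, by far the most abundant member, overlapped, at 6679 to 12548 TPM and 10016 to 14763 TPM (0.48, SE 0.31). The open reading frames of Mup11 and Mup12 were 99.08% identical, as were those of Mup11 and Mup15, so the split of reads among these copies on chromosome 4 is uncertain. On high cholesterol 18 of the 19 were positive with a median of 0.87. The groups were apart for 0 of them there, where 0.0799% of all genes were above. At a share this small, a count of 0 in a short list does not set the diets apart. Mup7, Mup11, Mup12 and Mup20 were likewise picked out by the study in these mice.

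Female-biased genes, leaving out those picked by the study, were mostly lower in Gramd1c-/- mice. Of 34 tested, 30 had negative fold changes (88.2%, against 50.3% of all genes), the median log2 fold change was -0.43 (-0.49 without replicate 2, when 31 were negative), and 3 (8.82%) were apart. The median was -0.31 without Gramd1c-/- replicate 4 and -0.34 without Gramd1c+/+ replicate 5. Hao2, a peroxisomal hydroxyacid oxidase, was at 10.7 to 31.2 TPM in Gramd1c+/+ and 2.76 to 10.8 TPM in Gramd1c-/- mice, where Gramd1c+/+ replicate 1 and Gramd1c-/- replicate 3 met in TPM but not in scaled counts (-1.66, SE 0.71). The sulfotransferase Sult3a1 was at 369 to 585 TPM and 87.6 to 346 TPM (-1.28, SE 0.74).

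Sult2a2 and Sult3a2 spread more widely between mice. Sult2a2, which sulfates steroids and bile acids, was at 7.57, 29.2, 77.2, 50.7 and 117 TPM in Gramd1c+/+ and at 16.7, 0.570, 2.64 and 1.98 TPM in Gramd1c-/- mice, so that replicate 1 of each genotype crossed into the other group (-3.33, SE 1.29, and -5.04 without the Gramd1c-/- one). Sult3a2 was at 9.67 to 44.1 TPM and at 3.11, 2.30, 9.57 and 1.84 TPM (-2.58, SE 0.92). The most negative value of the list, that of Akr1b7, rests on replicate 2 and on its adrenal transcripts: Akr1b7 was at 47.0 TPM there, at 0.552 to 2.51 TPM in the other Gramd1c+/+ mice and at 0.604 to 1.41 TPM in Gramd1c-/- mice. Its log2 fold change was -3.50 with and -0.79 without that library.

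Male-biased genes, leaving out those picked by the study, were mostly higher. Of 31 tested, 27 had positive fold changes (87.1%, against 49.7% of all genes), the median was 0.47 (0.50 without replicate 2, when 26 were positive, and 0.31 without Gramd1c-/- replicate 4), and 3 (9.68%) were apart: C6, C8a and Cyp2u1. C6 and C8a encode parts of the membrane attack complex of complement. C6 was at 9.05, 14.7, 12.2, 11.3 and 7.19 TPM in Gramd1c+/+ and at 16.4, 28.8, 22.3 and 25.0 TPM in Gramd1c-/- mice (1.09, SE 0.41). C8a was at 117 to 251 TPM and 212 to 344 TPM, where the order of the scaled counts, in which the groups were apart, differs from that of TPM (0.68, SE 0.31).

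Cyp7b1, an oxysterol hydroxylase, was at 34.3 to 75.4 TPM in Gramd1c+/+ and 72.2 to 117 TPM in Gramd1c-/- mice, with an overlap of 1 mouse of each group (0.77, SE 0.30). Cyp2u1, a fatty acid hydroxylase, was at 1.996 to 6.74 and 6.77 to 8.44 TPM (0.70, SE 0.45). Bcl6 had the smallest p of the list and rests on a single mouse. It was at 2.04, 2.60, 2.28, 2.88 and 2.30 TPM in Gramd1c+/+ and at 2.26, 3.30, 3.19 and 11.3 TPM in Gramd1c-/- mice, the last in replicate 4. Its log2 fold change was 1.02 (SE 0.34), and 0.29 without that mouse. Of the 2 RefSeq start regions of Bcl6, that at the more downstream start is shown, since it holds 3 copies of the motif TTCNNNGAA (in capitals) at 168, 122 and 88 bases before the start, where the other holds 1.
Bcl6 (chr16:23981234-23981533, minus strand): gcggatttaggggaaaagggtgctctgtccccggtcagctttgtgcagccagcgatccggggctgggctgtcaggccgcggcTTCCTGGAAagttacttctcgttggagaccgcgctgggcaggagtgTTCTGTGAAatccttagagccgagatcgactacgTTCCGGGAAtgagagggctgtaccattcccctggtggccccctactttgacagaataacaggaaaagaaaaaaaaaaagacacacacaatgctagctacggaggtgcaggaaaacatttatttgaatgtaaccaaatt
The RefSeq start regions of Mup7 and Mup11 held 0 copies of the motif. A match of these letters, or its absence, says nothing on binding in these livers.

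On high cholesterol the median log2 fold change was 0.05 for the 34 female-biased and 0.16 for the 31 male-biased genes. The groups were apart for 0 of either list, where 0.0799% of all genes were above and 0.127% below. At such shares these counts of 0 do not set the diets apart. On low cholesterol the summed levels overlapped. For all 35 listed female-biased genes, they were 6348 to 9137.9 TPM in Gramd1c+/+ and 4852 to 6891.6 TPM in Gramd1c-/- mice. For all 32 listed male-biased genes, they were 10243 to 18447 and 15147 to 21948 TPM. On high cholesterol the male-biased sum reached 25263 TPM in Gramd1c+/+ replicate 1 and 26625 TPM in Gramd1c-/- replicate 5. Both lists were put together with earlier results of these mice known, and their genes share regulators, so that the counts are not those of independent genes. Genes of growth hormone signalling itself did not separate. Of 22 tested, 13 were positive and 9 negative with a median of 0.06, and the groups were apart for 0. Their log2 fold changes ran from -0.83 to 1.02, the last being that of Bcl6. The growth hormone receptor Ghr was at 129 to 157 TPM in Gramd1c+/+ and 142 to 160 TPM in Gramd1c-/- mice, and Stat5b at 19.4 to 29.2 and 22.2 to 32.7 TPM.

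**Figure D4:**
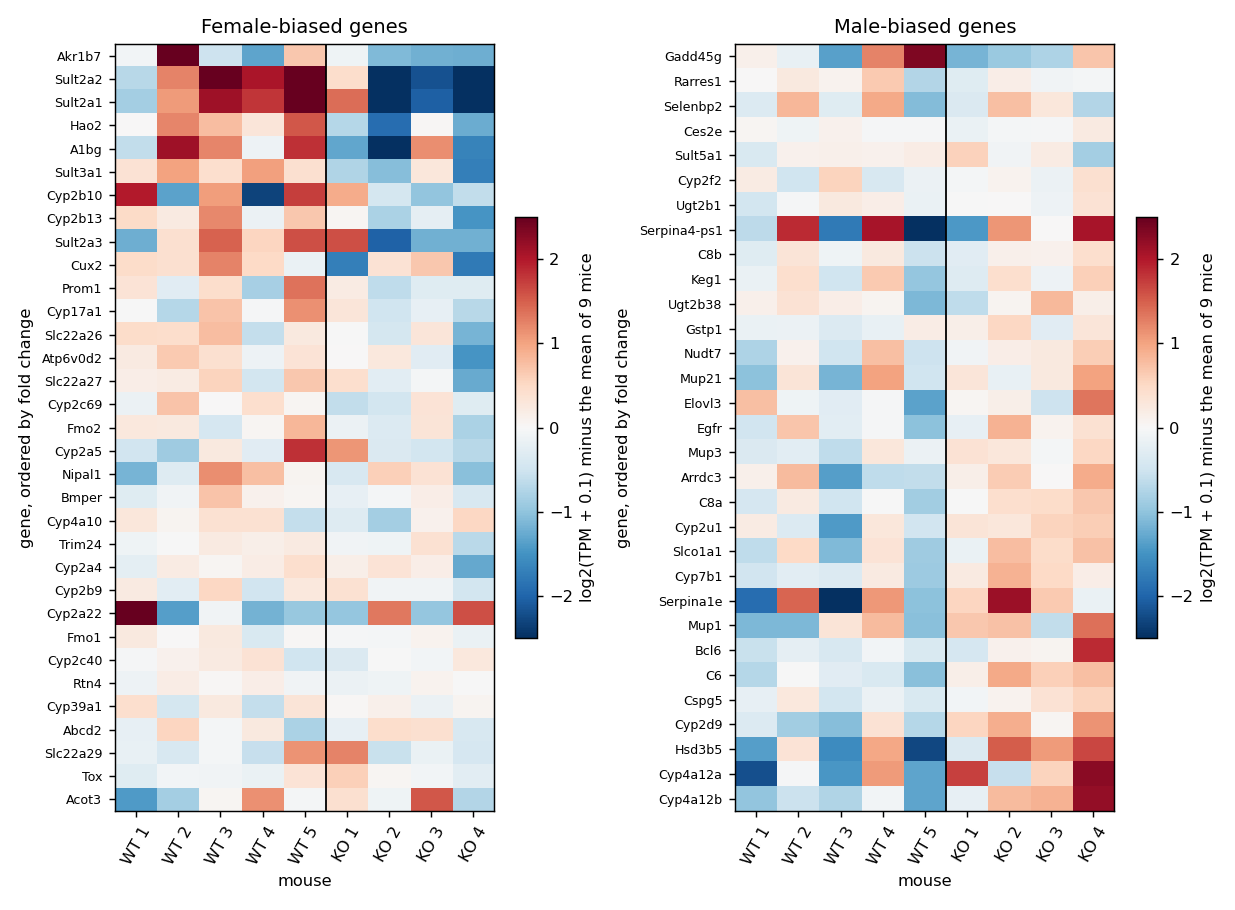
Log2(TPM + 0.1) minus the mean of the 9 mice (colour) for 33 of the 34 female-biased genes (left; 1 is not shown) and 31 male-biased genes (right), leaving out members that had been picked in these mice, with 1 column per mouse, Gramd1c+/+ (WT) to the left and Gramd1c-/- (KO) to the right of the line. Sult2a2 and Hao2 are low in most KO mice, C6 and Cyp7b1 are high, and single mice such as KO 4 for Bcl6 and WT 2 for Akr1b7 stand out.

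Apart from these families, Slc41a2 had the smallest p after Gramd1c in the fit of all mice. Without replicate 2 the p of Orm3 was smaller than that of Slc41a2. Slc41a2 encodes a magnesium transporter of the plasma membrane. It was at 2.32, 2.36, 1.79, 1.64 and 1.68 TPM in Gramd1c+/+ and at 3.59, 3.57, 3.45 and 5.39 TPM in Gramd1c-/- mice. The log2 fold change was 1.03 (SE 0.25) with replicate 2 and 1.05 without it, and -0.15 on high cholesterol. Of 17 magnesium transporters tested, 7 were positive and 10 negative. Susd4, an inhibitor of complement activation, was at 1.79 to 4.02 TPM and 5.27 to 10.1 TPM (1.39, SE 0.47), and the organic anion transporter family member Slc22a28 at 1.09 to 5.78 TPM and 5.29 to 10.1 TPM (1.44, SE 0.66, and 1.73 without replicate 2), where the groups were apart in scaled counts only. Slc41a2, Susd4, Slc22a28 and Sult3a2 were also chosen by the study on these mice. Of 35 complement genes 17 were positive and 18 negative, and Susd4, C6 and C8a were the 3 that were apart. Without replicate 2 there were 15 and 20, and 1 gene was also apart in the lower direction.

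Among the other genes with the smallest p, Wdr34, a part of the dynein that moves cargo in cilia, was at 5.30, 6.20, 5.60, 5.61 and 6.23 TPM in Gramd1c+/+ and at 4.00, 3.62, 4.44 and 4.36 TPM in Gramd1c-/- mice (-0.50, SE 0.13). The spread within each group was small for this gene, and no mouse crossed. Ddah2, related to an enzyme that degrades methylated arginine, was at 4.52 to 6.12 TPM and at 2.94, 2.76, 2.65 and 4.37 TPM (-0.69, SE 0.20). Get4, which helps to insert tail-anchored proteins in membranes, was at 21.3 to 28.5 and 18.4 to 20.9 TPM (-0.37, SE 0.12). Plpp1, a lipid phosphate phosphatase, was at 18.95 to 32.5 and 14.2 to 18.3 TPM (-0.49, SE 0.15). These genes were apart with and without replicate 2.

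Of the higher genes, Eif2ak2, the kinase PKR that senses double-stranded RNA, was at 5.54 to 7.88 TPM in Gramd1c+/+ and 7.87 to 8.69 TPM in Gramd1c-/- mice (0.36, SE 0.11), and Traf3, an adaptor of antiviral and cytokine signalling, at 1.56 to 2.77 and 2.71 to 3.48 TPM (0.55, SE 0.18). Both were apart in scaled counts, and replicate 2 was the highest Gramd1c+/+ mouse for both. The homeobox gene En2 had the largest fold change of these (2.76, SE 0.74) at a very low level, 0 to 0.105 TPM and 0.175 to 0.597 TPM. Of 29 interferon-stimulated genes, a list that did not hold Eif2ak2 or Traf3, 26 were positive with a median of 0.19 (0.21 without replicate 2). The groups were apart for 0 of them, or 2 without replicate 2. The median was 0.10 without Gramd1c-/- replicate 1. On high cholesterol 24 of the 29 were positive with a median of 0.11.

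Leaving out replicate 2 brought other genes forward. Orm3, an acute phase glycoprotein, was at 19.9, 7.07, 23.5, 11.5 and 23.0 TPM in Gramd1c+/+ and at 7.28, 3.28, 3.54 and 10.1 TPM in Gramd1c-/- mice. Replicate 2 was the lowest Gramd1c+/+ mouse and the one that overlapped, and without it the groups were apart and the log2 fold change went from -1.53 (SE 0.43) to -1.74 (SE 0.40, edgeR adjusted p = 0.999). Its relatives Orm1, at 1409 to 1748 and 1112 to 1695 TPM, and Orm2, at 19.3 to 41.6 and 19.9 to 43.8 TPM, overlapped. Cybrd1, a ferric reductase, was at 0.332 TPM in replicate 2, 0.0417 to 0.0928 TPM in the other Gramd1c+/+ mice and 0.174 to 0.322 TPM in Gramd1c-/- mice, and its log2 fold change went from 1.17 to 2.02 without replicate 2. Of the 15 genes with a lower value and the smallest p with all mice, Cyp21a1, Hsd3b1, Star, Akr1b7 and Cfd owe their place to replicate 2. Without it their log2 fold changes were 0.06, 0.22, 0.08, -0.79 and 0.66.

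Genes that glucocorticoids induce in liver were lower for 15 of 16 tested, with a median log2 fold change of -0.45 (-0.56 without replicate 2 and -0.26 without replicate 5 of Gramd1c+/+), but the groups were apart for 0 of them. Sgk1, a serum and glucocorticoid regulated kinase, was at 7.71, 12.0, 16.7, 11.3 and 14.7 TPM in Gramd1c+/+ and at 6.72, 10.4, 10.3 and 7.07 TPM in Gramd1c-/- mice (-0.54, SE 0.23). Igfbp1, which binds insulin-like growth factors, was at 70.1 to 143 and 50.3 to 91.8 TPM (-0.59, SE 0.29). Replicate 1 of Gramd1c+/+ for the first gene and replicate 4 for the second lay within the Gramd1c-/- range. On high cholesterol 15 of the 16 were also negative, with a median of -0.22, in other mice.

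Mitochondrially encoded transcripts took a larger share of the counts in Gramd1c-/- mice. The share was 4.92, 3.89, 3.23, 4.31 and 4.501% in Gramd1c+/+ and 5.29, 4.75, 4.93 and 5.24% in Gramd1c-/- mice, or 4.17% ± 0.64 (SD, n = 5) and 5.05% ± 0.25 (SD, n = 4). A two-sided exact permutation test gave p = 0.0317, and p = 0.0571 without replicate 2, where 0.0286 is the smallest that can be had. These 2 tests are not adjusted for the other measures in this text. All 13 mitochondrial mRNAs had positive fold changes, with a median of 0.33 (0.23 without replicate 2), and 2 (15.4%) were apart. mt-Nd2, a subunit of complex I, was at 11703, 9675, 9059, 9989 and 9355 TPM and at 12914, 12647, 12976 and 13187 TPM (0.37, SE 0.16), and mt-Nd5 at 4021 to 5130 and 5517 to 6040 TPM (0.33, SE 0.15). Of 17 mitochondrial tRNAs 16 were positive with a median of 0.58, and 3 (17.6%) were apart. Of these mt-Ti was at 25.8 to 60.5 and 69.8 to 108 TPM (1.10, SE 0.46). The tRNA mt-Tq was at 47.0 to 105 TPM and at 234, 213, 242 and 95.9 TPM (1.51, SE 0.49), and tRNAs are caught only in part by poly(A) selection. Both tRNAs were picked out by the study in these mice. The mitochondrial mRNAs and tRNAs are themselves part of the share given above, so their counts are not separate evidence. On high cholesterol 3 of the 13 mRNAs were positive, with a median of -0.08.

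**Figure D5:**
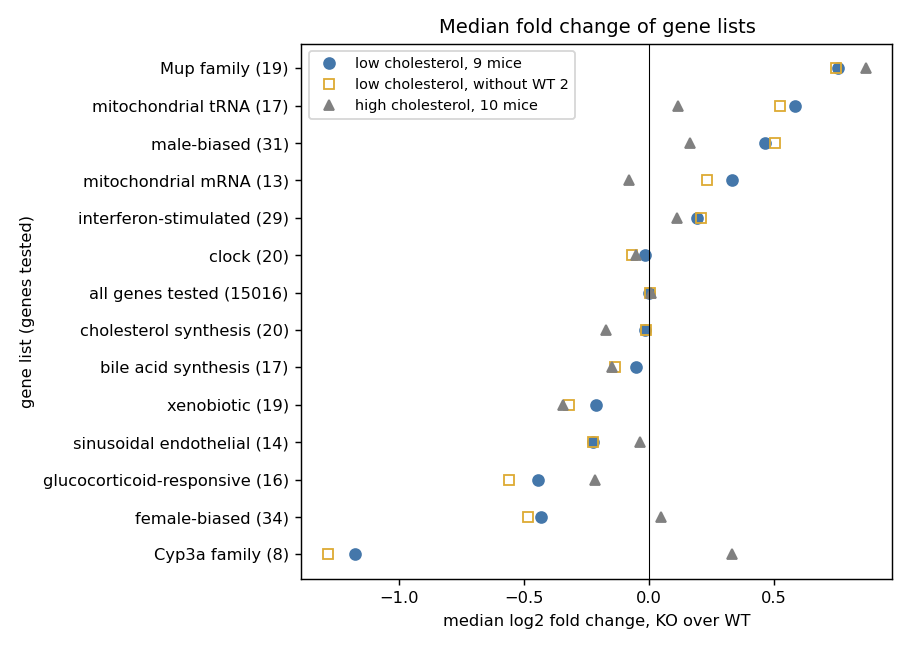
Median log2 fold change, Gramd1c-/- (KO) over Gramd1c+/+ (WT), of 13 gene lists and of all genes tested, with the number of genes in parentheses, for 9 mice on low cholesterol (circles), the same without WT 2 (squares) and 10 mice on high cholesterol (triangles). The Cyp3a family and female-biased genes are below 0 on low cholesterol only, and the Mup family is above 0 on both diets.

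Between the diets, the difference of the genotype effect was called for 0 of 15016 genes by edgeR, with a smallest adjusted p of 1.0, and for 0 without replicate 2 (smallest adjusted p 0.999). At an unadjusted p below 0.05 there were 250 and 192 genes. The difference of Cyp3a16 between the diets, -6.58 (SE 1.56), for example, did not pass the adjustment over 15016 genes.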

How the data were processed

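Liver RNA of 19 mice was read as 1 poly(A)-selected library per mouse. The values deposited are raw read counts for 49315 Ensembl genes with their lengths, of which 48970 matched a symbol. The submitters' notes name STAR 2.5.2b and GRCm38. How reads were counted, whether by strand, and on which annotation is not given in the sources used here, so overlapping and antisense genes cannot be told apart. TPM was computed from counts and lengths. Counts were tested with edgeR 4.0.16 (limma 3.58.1, R 4.3.3), using TMM scaling, filterByExpr with a count minimum of 10, the quasi-likelihood F test and a model of all 19 mice by group. DESeq2 1.42.0 was an alternative. SE is the absolute log2 fold change over the root of F. The biological coefficient of variation was 0.255. Groups were called apart on TMM-scaled CPM. Start regions are from RefSeq (GRCm38.p6) and open reading frames are the longest in GENCODE transcripts. The fit was tested on simulated data.

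The members and lists were chosen with earlier results of these data known. Named genes follow a rule: Gramd1c and other Aster genes, genes of the study, the 15 higher and 15 lower with the smallest p (10 and 10 without Gramd1c+/+ replicate 2), up to 6 per list and the 10 that moved most without that replicate. Cyp3a11, Cyp3a25, Orm1, Orm2, Ghr, Stat5b, Cyp7a1, Cyp2u1, Mup3, Mup15, clock genes, Igkc and single marker genes were chosen after their values were seen. Alternatives were RLE size factors, DESeq2, limma-voom with sample weights, limma on log2(TPM + 1), no filter, at least 1 CPM in 4 mice, the 9 mice alone, the replicate number as a block, a term for animal numbers, and each mouse left out. Some genes of the lists are not reported here by name.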

Additional observations from a re-analysis of the deposited data

Results flagged for a closer look

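In 90 sets of TPM values (45 genes with a fold change in the text, in each genotype), a mouse far from the others of its group by Dixon's test was found 18 times, where chance gives about 1 in 20 sets. The genes were not chosen independently of the mice, and those of replicate 2 were named because of that library, so the number cannot be read against chance. In replicate 2 of the Gramd1c+/+ mice these were 7: Cyp21a1 at 191 TPM (others 0.245 to 0.479), Hsd3b1 at 198 (0.295 to 0.8), Star at 84.0 (0.469 to 1.14), Akr1b7 at 47.0 (0.552 to 2.51), Cfd at 108 (0.222 to 0.892), Gramd1b at 3.47 (0.53 to 0.706) and Cybrd1 at 0.332 (0.0417 to 0.0928). Replicate 4 of Gramd1c+/+ stood apart for Mup7, at 15.6 TPM against 2.32 to 5.22.

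Among the Gramd1c-/- mice, replicate 4 stood apart for Bcl6 at 11.3 TPM (others 2.26 to 3.3), Mup20 at 480 (175 to 222), Slc41a2 at 5.39 (3.45 to 3.59) and Ddah2 at 4.37 (2.65 to 2.94). Replicate 3 stood apart for Cyp3a41a at 100 TPM (12.1 to 24.0), Cyp3a41b at 2.35 (0.205 to 0.349), Sult3a2 at 9.57 (1.84 to 3.11) and Eif2ak2 at 8.69 (7.87 to 7.95). For the first 3 of these it was the mouse nearest to the Gramd1c+/+ level. Replicate 1 stood apart for Sult2a2 at 16.7 TPM (0.57 to 2.64) and Akr1b7 at 1.41 (0.604 to 0.66).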

How the results depend on the processing

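Gramd1c alone was called under every alternative tried with all mice, and its log2 fold change was -3.00 to -2.76 when each mouse was left out in turn. Without Gramd1c+/+ replicate 2, DESeq2 called 2 genes, and the other alternatives 1. The difference between the diets was called for 0 genes under every alternative. Leaving out replicate 2 reversed 5 of the 45 genes with a fold change in the text. Over the mice left out in turn their log2 fold changes ranged from -0.95 to 0.005 (Gramd1b), -6.96 to 0.0586 (Cyp21a1), -6.70 to 0.22 (Hsd3b1), -4.26 to 0.0797 (Star) and -5.31 to 0.66 (Cfd), the second value being that without replicate 2. The other 40 kept their direction.

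The genes whose groups were apart numbered 159 higher on scaled counts and 104 on TPM, the cause of which was not tested. With any mouse left out there were 225 to 523 higher, 221 to 419 lower and 461 to 878 in all, since fewer mice have to be separated. The highest counts came without Gramd1c-/- replicate 4 (523 higher) and without Gramd1c+/+ replicate 2 (419 lower). With a term for animal numbers the median was 0.84 for male-biased genes (0.47 without the term) and 1.17 for the Mup family (0.76 without it). This term divided the mice into a lower and a higher run of the animal numbers given with the counts. What the runs stand for is not known here, and how they fall over the genotypes is not reported here.

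With the replicate number as a block 1 gene was called and the log2 fold change of Gramd1c was -2.75. The labels do not say what the replicate numbers stand for. In deviations from the group mean, 27 pairs with the same number had a mean correlation of -0.0689 (-0.3497 to 0.286). For 108 pairs with different numbers it was 0.0173 (-0.4162 to 0.3854). Such means over all genes cannot exclude a block that acts on part of the genes. At a median SE of 0.2016 small differences were not detectable with 4 and 5 mice.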

Other observations

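Clock genes differed between mice of the same genotype. Arntl, an activator of the clock, was at 2.58, 2.04, 0.996, 0.668 and 0.482 TPM in Gramd1c+/+ and at 0.575, 1.13, 0.800 and 2.32 TPM in Gramd1c-/- mice. Dbp, a clock output gene, was at 22.7, 29.8, 54.9, 69.55 and 95.0 TPM and at 83.1, 49.0, 62.6 and 40.1 TPM. Replicates 1 and 2 of Gramd1c+/+ and replicate 4 of Gramd1c-/- thus had the most Arntl and the least Dbp. Of 20 clock genes 10 were positive and 10 negative by genotype, or 8 and 12 without Gramd1c+/+ replicate 2. The time of day at which each liver was taken was not used here.

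Markers of sinusoidal endothelium were negative for 13 of 14, with a median log2 fold change of -0.22 (-0.04 on high cholesterol, and on low cholesterol -0.08 without Gramd1c+/+ replicate 3 and -0.14 without Gramd1c-/- replicate 3) and 0 genes apart, and their summed level overlapped, at 339.36 to 469.67 TPM in Gramd1c+/+ and 269.3 to 385.71 TPM in Gramd1c-/- mice. Kupffer cell and macrophage markers had a median of -0.03 and stellate cell markers one of 0.04. Of 18 periportal hepatocyte genes 14 were negative with all mice and 17 without replicate 2, with medians of -0.09 and -0.20, and 17 of 19 xenobiotic receptors and targets were negative with a median of -0.21, which was -0.32 without Gramd1c+/+ replicate 2 and -0.14 without Gramd1c-/- replicate 3. On high cholesterol 15 of the 19 were negative with a median of -0.34. Igkc, an antibody light chain of plasma cells, was at 55.3 TPM in replicate 1 of the Gramd1c-/- mice and at 8.51 to 14.99 TPM in the other 8 mice.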
